A study of Mus musculus with 41 samples.

Results

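The 10 Toll-like receptor genes Tlr1, Tlr2, Tlr3, Tlr4, Tlr5, Tlr6, Tlr7, Tlr8, Tlr9 and Tlr13 were described in 3 kinds of myeloid cells from irradiated and untreated mouse rectal tumours. They were taken by gene symbol, and all 10 were found among the 55453 genes of each of 3 deposited tables of comparisons. Toll-like receptors are membrane proteins that recognise microbial molecules, and some also respond to material released by dying cells. Tlr2 pairs with Tlr1 or Tlr6 to bind bacterial lipoproteins, Tlr4 binds lipopolysaccharide together with accessory proteins, and Tlr5 binds flagellin. Tlr3, Tlr7, Tlr8, Tlr9 and Tlr13 sit in endosomes and recognise nucleic acids. All of them signal through adaptors with a TIR domain towards NF-kB and interferon regulatory factors, and macrophages, monocytes and neutrophils are among their main users.

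The tumours were orthotopic MC38-luc tumours, grown from a mouse colon adenocarcinoma line with a luciferase gene in the rectum of C57BL6 female mice. Irradiated tumours received 5 doses of 5 Gy, given daily from day 9 to day 13 of growth, untreated tumours (UT) received none, and both were taken on day 14. The CD45+ CD11b+ cells were sorted into tumour-associated macrophages (TAM; F4/80+ without Ly6C or Ly6G), inflammatory monocytes (IM; Ly6C+ without Ly6G) and granulocytes (positive for Ly6C and Ly6G), and each sort gave at most 1 library per tumour. The groups held 10 irradiated and 5 untreated TAM libraries, 9 irradiated and 5 untreated inflammatory monocyte libraries, and 7 irradiated and 5 untreated granulocyte libraries. Irradiated and untreated tumours carry different tumour numbers, while the 3 sorts of 1 tumour share a number. The labels give no age.

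Each comparison is irradiated against untreated cells of 1 sort. The tables hold a mean normalised count over libraries, a log2 fold change (log2FC) that was read as shrunken towards 0, a Wald statistic (the effect over its standard error), a p-value and a p-value adjusted over all genes tested. A gene is said to have risen or fallen where that adjusted p, from the authors' DESeq2 fit, is under 0.05, in the direction of the Wald statistic. No value of a single library was analysed here, so depth per library is unknown, no SD is given, and the overlap of the groups cannot be shown. The tables give no level within a sort either, so the sorted identities were not checked against markers. In sorted bulk RNA, a change in the share of cells of a type and a change of RNA per cell cannot be told apart.

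All 10 members had an adjusted p in each comparison, and fold and Wald statistic had the same sign in all 30 values. In all, 8 members passed the test in exactly 1 sort each, none passed it in more than 1, and Tlr1 and Tlr4 passed it in none. Of all tested genes, 26.4% passed it in TAM, 5.90% in IM and 17.2% in granulocytes. The share of all genes that passed it in exactly 1 sort was not counted, so this pattern cannot be called particular to the members. Tlr2, Tlr5, Tlr8 and Tlr13 rose in TAM, Tlr3 rose in IM, and Tlr7 and Tlr9 rose while Tlr6 fell in granulocytes. When each comparison's Wald statistics were divided by their robust SD, a stricter scale that takes most genes as unchanged, no member was called in any sort. A call in 1 sort and its absence in another is not by itself a difference between sorts, and such differences were tested on their own. The Wald statistic was positive in all 3 sorts for 6 members, namely Tlr2, Tlr3, Tlr7, Tlr8, Tlr9 and Tlr13.

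**Figure D1:**
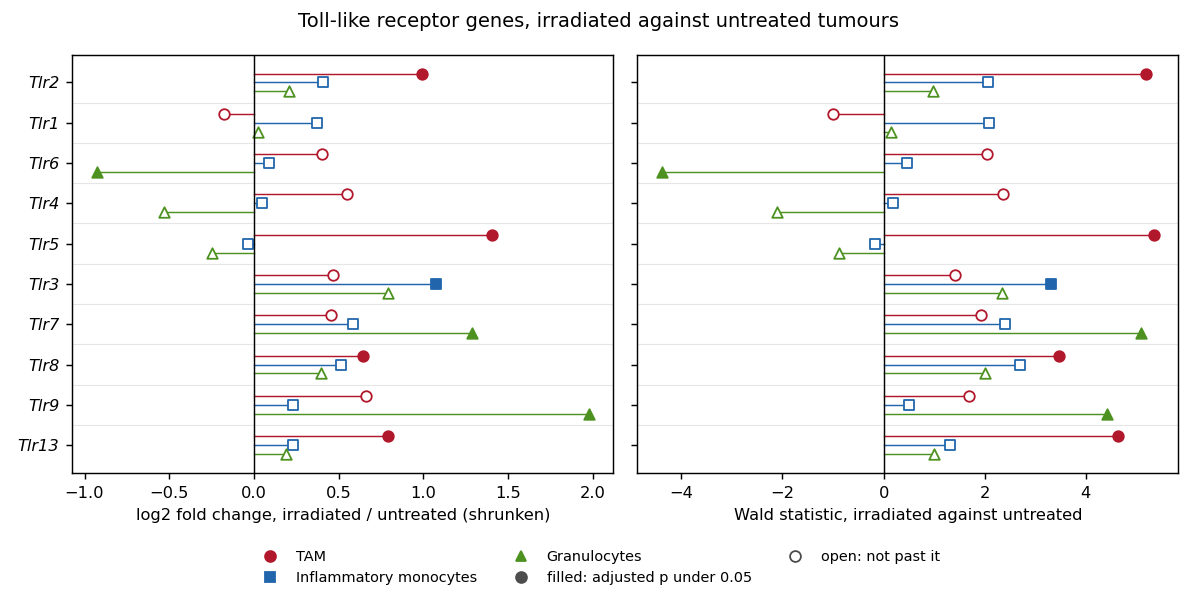
Shrunken log2 fold change (left) and Wald statistic (right) of irradiated against untreated cells for the 10 Toll-like receptor genes in the authors' deposited tables, with TAM as red circles, IM as blue squares and granulocytes as green triangles. Filled symbols have an adjusted p under 0.05, and lines run from 0. Tlr5 reaches a Wald statistic of 5.35 in TAM and Tlr6 falls to -4.39 in granulocytes.

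The levels of the members differed widely. Per kilobase of annotated exon, the mean normalised count, taken from the authors' deposited table and divided by the GENCODE exon length, was highest for Tlr2 with 4509 and Tlr13 with 3899, followed by Tlr4 with 1591. Tlr1 with 536, Tlr6 with 528 and Tlr8 with 523 mean counts per kilobase lay close together on the same scale, from the authors' deposited table. Below them stood Tlr7 with 302, Tlr5 with 167, Tlr3 with 87.1 and Tlr9 with 12.4 mean counts per kilobase, again from the authors' deposited table. The means are identical in the 3 tables, so they were read as means over every library, and they have no spread there. Whether neighbours in this order differ was therefore not tested, and the order need not hold in any single sort. Tlr9, at a mean count of 43.2 in the authors' deposited table, is the least abundant member.

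**Figure D2:**
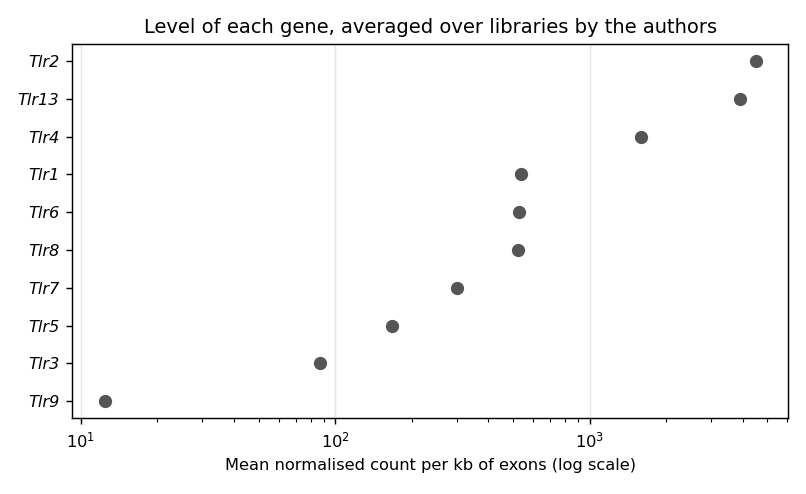
Mean normalised count per kilobase of exons of each Toll-like receptor gene on a log scale, from the means that the authors took over all libraries and exon lengths of GENCODE M21. Tlr2 and Tlr13 stand highest at 4509 and 3899, and Tlr9 lowest at 12.4.

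Some reads may be shared between members. Tlr1 and Tlr6 are close relatives, and 454 of the 3332 different 50-base words in the GENCODE transcripts of Tlr1 (13.6%) also occur in those of Tlr6, where they make up 12.3%. How reads that match both genes were counted is not given in the sources used here, so the values of this pair may be mixed in part. Exons of the gene model Gm45542 overlap 7.32% of the exon length of Tlr3 on the opposite strand, and in the authors' deposited table its mean count is 0. Tlr2, Tlr5, Tlr7, Tlr8, Tlr9 and Tlr13 shared no such word with any other gene.

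In TAM, 4 of 10 members rose and none fell, beside 26.4% of all 16851 tested genes that changed, 13.9% that rose and 12.5% that fell. The flagellin receptor gene Tlr5 had a log2FC of 1.41, a fold of 2.65, with a Wald statistic of 5.35 and adjusted p = 2.4e-06 in the authors' deposited table. For Tlr2, the shared chain of the lipoprotein receptors, the authors' deposited table gives a log2FC of 0.99 (adjusted p = 5.0e-06, Wald statistic 5.20). Tlr13, an endosomal receptor for bacterial ribosomal RNA in mice, had 0.79 (adjusted p = 5.9e-05, Wald statistic 4.63) in the authors' deposited table. Tlr8, an endosomal receptor that binds single-stranded RNA in humans, followed with 0.64 (adjusted p = 0.0038, Wald statistic 3.47) in the authors' deposited table. Among all tested genes, 1.57% had a higher Wald statistic than Tlr5, 1.77% than Tlr2, 2.76% than Tlr13 and 7.06% than Tlr8.

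The lipopolysaccharide receptor gene Tlr4 did not pass the test in TAM, with a log2FC of 0.55 and adjusted p = 0.065 in the authors' deposited table. Adjusted only over genes whose mean count reaches 50, its p was 0.048. The partner chains of Tlr2 did not pass it either, as the authors' deposited table gives 0.40 for Tlr6 (adjusted p = 0.12) and -0.18 for Tlr1 (adjusted p = 0.51). Among the endosomal receptors, Tlr7 had 0.46 (adjusted p = 0.15), Tlr9 had 0.66 (adjusted p = 0.21) and Tlr3 had 0.47 (adjusted p = 0.31) in the authors' deposited table. Over the 10 members the median Wald statistic was 2.20 and the median log2FC 0.60, against 0.14 and 0.03 over all tested genes. Of the members, 9 had a positive Wald statistic, as had 52.8% of all tested genes.

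Markers of other cells moved in the same comparison. In TAM of irradiated tumours, 9 of 12 neutrophil markers had a Wald statistic past the threshold and above 0, of which 3 carry a negative shrunken fold, and so did 6 of 9 granule genes, again 3 with a negative fold. Classical monocyte markers rose in 5 of 9 cases, macrophage markers in 3 of 10 and eosinophil markers in 4 of 5 tested, with log2FC values of 1.96 for Ly6c2 and 2.48 for Siglecf in the authors' deposited table. Conventional dendritic cell markers fell in 4 of 8 cases, among them Batf3 with -1.25 in the authors' deposited table. T and NK cell markers fell in 2 of 9 cases and fibroblast markers in 3 of 7, and 1 of 8 epithelial or tumour cell markers rose. In plasmacytoid dendritic cell markers 2 of 10 rose, and in B cell markers 1 of 8 rose and 1 fell. The level of these lists within a group is not in the tables, none of their genes had a mean count of 0, and their part in the changes of Tlr2, Tlr5, Tlr8 and Tlr13 was not tested.

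**Figure D3:**
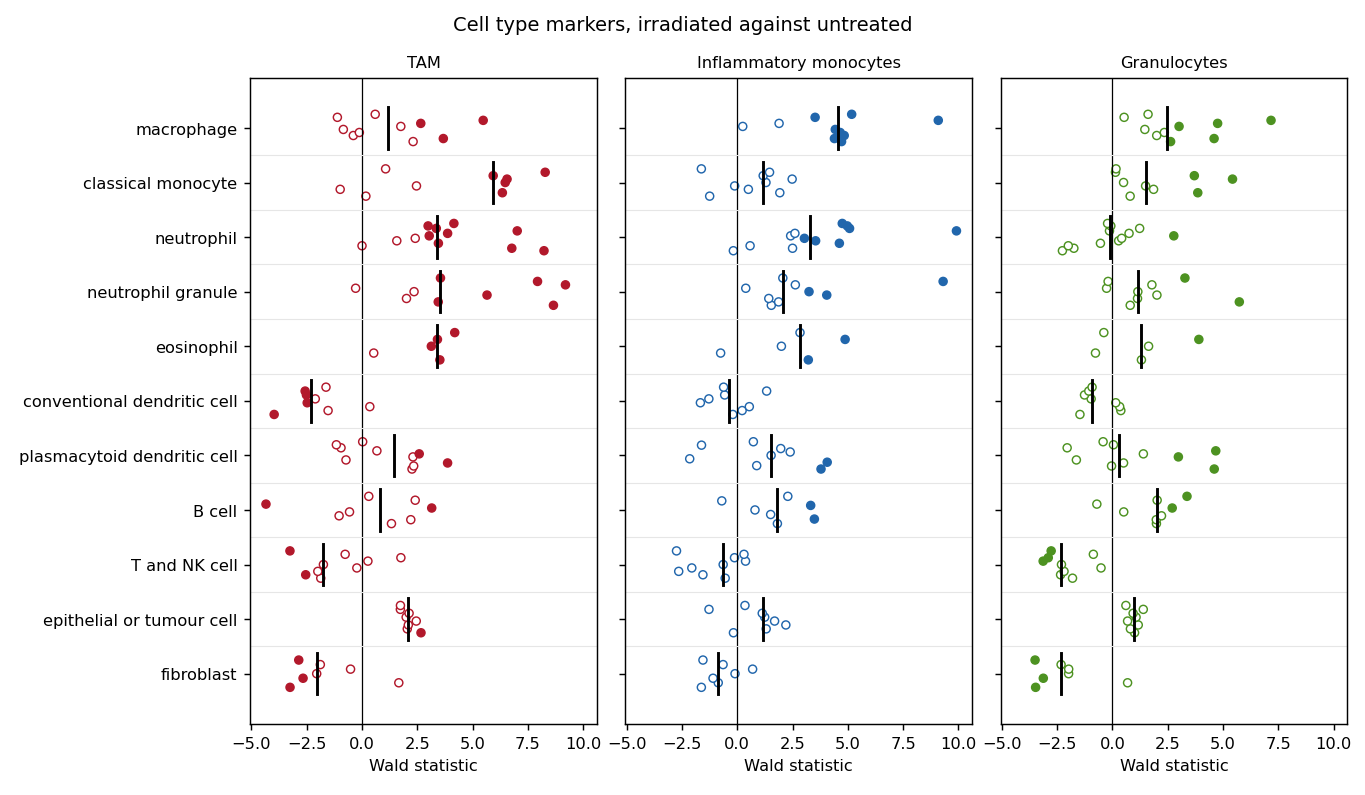
Wald statistics of irradiated against untreated cells for the tested genes of 11 marker lists in the 3 sorts, from the authors' deposited tables. Each point is 1 gene, filled where its adjusted p is under 0.05, and black bars are list medians. In TAM the classical monocyte list has a median of 5.93 and the conventional dendritic cell list one of -2.30.

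The promoters of the 3 members with the smallest adjusted p in TAM are shown from 250 bases before to 50 after the annotated start, to set the genes that rose there beside each other. RefSeq (GRCm38.p6) places them at chr1:182954538-182954837 on the plus strand for Tlr5, chr3:83841559-83841858 on the minus strand for Tlr2 and chrX:106143025-106143324 on the plus strand for Tlr13. Of the 10 members, 8 matched a RefSeq promoter by symbol, all but Tlr4 and Tlr7. They were searched on both strands for an interferon response core GAANNGAAA, an NF-kB core GGANTTTCC and a PU.1 core GAGGAAGT, and no matches overlapped. Of 32851 promoters of the same length, 7.52% hold the interferon response core, 1.25% the NF-kB core and 3.20% the PU.1 core. Capitals mark a match, which is a description of letters and not of binding. Only these exact letter patterns were searched, so a window without a match may still hold another form of the same site.
Tlr5: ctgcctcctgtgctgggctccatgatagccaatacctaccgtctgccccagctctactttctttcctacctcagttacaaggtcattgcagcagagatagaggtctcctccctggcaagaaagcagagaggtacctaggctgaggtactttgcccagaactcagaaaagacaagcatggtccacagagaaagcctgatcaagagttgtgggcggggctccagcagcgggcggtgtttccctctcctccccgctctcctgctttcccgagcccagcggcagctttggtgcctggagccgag
Tlr2: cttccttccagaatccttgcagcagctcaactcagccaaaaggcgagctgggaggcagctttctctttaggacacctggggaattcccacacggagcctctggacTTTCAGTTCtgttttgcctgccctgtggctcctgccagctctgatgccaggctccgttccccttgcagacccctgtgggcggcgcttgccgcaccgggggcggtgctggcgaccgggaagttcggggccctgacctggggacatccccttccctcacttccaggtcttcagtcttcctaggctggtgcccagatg
Tlr13: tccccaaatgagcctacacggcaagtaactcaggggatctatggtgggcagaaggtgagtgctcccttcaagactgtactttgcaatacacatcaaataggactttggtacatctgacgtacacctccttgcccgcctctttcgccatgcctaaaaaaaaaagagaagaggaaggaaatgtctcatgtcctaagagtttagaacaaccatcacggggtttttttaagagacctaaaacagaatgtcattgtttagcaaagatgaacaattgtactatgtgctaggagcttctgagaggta
Tlr2 holds 1 interferon response core, on the minus strand of the gene, from position 106 of the 300 bases. The windows of Tlr5 and Tlr13 hold none of the 3 letter patterns, and neither do those of Tlr6 and Tlr8.

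**Figure D4:**
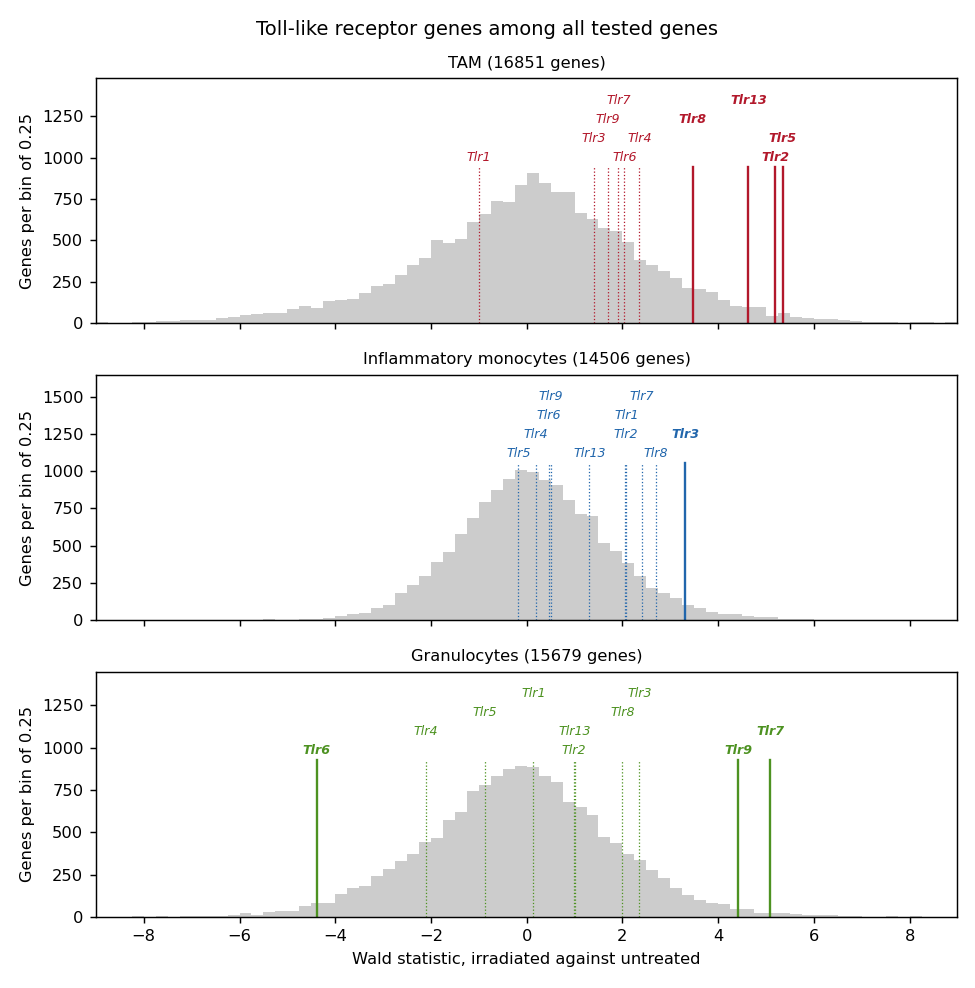
Histograms of the Wald statistics of all tested genes in each sort (bins of 0.25), with a line at each Toll-like receptor gene, solid and bold where its adjusted p is under 0.05 and dotted elsewhere. In TAM, 9 of the 10 lines lie above 0, and in granulocytes Tlr6 lies far to the left at -4.39.

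In IM, 1 of 10 members rose and none fell, beside 5.90% of all 14506 tested genes that changed, 4.13% that rose and 1.77% that fell. That member was Tlr3, the endosomal receptor for double-stranded RNA and the one that signals through the adaptor TRIF without MyD88. The authors' deposited table gives it a log2FC of 1.08, a fold of 2.11, with a Wald statistic of 3.31 and an adjusted p of 0.024. The call is close to the threshold, as its p was 0.052 when adjusted over every gene that has one. Tlr8 came next with a log2FC of 0.51 (adjusted p = 0.086), and Tlr7 with 0.58 (adjusted p = 0.14), in the authors' deposited table. Values for the lipoprotein receptor chains in the authors' deposited table were 0.41 for Tlr2 (adjusted p = 0.22), 0.37 for Tlr1 (adjusted p = 0.22) and 0.09 for Tlr6 (adjusted p = 0.85).

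Tlr13 had a log2FC of 0.23 with an adjusted p of 0.50 in IM in the authors' deposited table. Tlr9 also had 0.23 (adjusted p = 0.84), Tlr4 had 0.05 (adjusted p = 0.95) and Tlr5 had -0.03 (adjusted p = 0.95) in the authors' deposited table. The median Wald statistic of the members was 1.69, against 0.11 over all tested genes, and 9 of 10 were positive, as were 53.1% of all tested genes. Macrophage markers rose in 8 of 10 cases in this comparison and neutrophil markers in 7 of 12, with 1.91 for Mertk and 2.57 for Retnlg as log2FC values in the authors' deposited table. Granule genes rose in 3 of 9 cases, eosinophil markers in 2 of 5, plasmacytoid dendritic cell markers in 2 of 9 and B cell markers in 2 of 7, and no marker list had a gene that fell. Classical monocyte markers passed in 0 of 9 cases, with a median Wald statistic of 1.17. The rises counted include Mrgpra2b and Olfm4, whose log2FC values were only 0.05 and 0.11 at Wald statistics of 9.91 and 9.31 in the authors' deposited table. The part of these marker lists in the change of Tlr3 was not tested.

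The promoter of Tlr3 lies at chr8:45410331-45410630 on the minus strand (RefSeq, GRCm38.p6) and is shown because Tlr3 alone passed the test here. It holds 1 NF-kB core, in capitals, from position 41 of the window on the strand of the gene.
Tlr3: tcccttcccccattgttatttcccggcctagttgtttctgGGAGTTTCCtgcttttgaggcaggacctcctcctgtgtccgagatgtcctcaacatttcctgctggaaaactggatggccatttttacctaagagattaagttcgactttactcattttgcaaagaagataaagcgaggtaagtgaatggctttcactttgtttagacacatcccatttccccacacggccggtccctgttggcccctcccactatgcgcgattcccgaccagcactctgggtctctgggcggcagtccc

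In granulocytes, 2 of 10 members rose and 1 fell, beside 17.2% of all 15679 tested genes that changed, 7.32% that rose and 9.90% that fell. Tlr7, an endosomal receptor for single-stranded RNA, had a log2FC of 1.29, a fold of 2.44, with a Wald statistic of 5.09 and adjusted p = 2.6e-05 in the authors' deposited table. The CpG DNA receptor gene Tlr9 had the largest fold of any member in any sort, a log2FC of 1.98 or a fold of 3.93 (adjusted p = 0.00035, Wald statistic 4.42 in the authors' deposited table), from the low mean given above. Tlr6, the chain that pairs with Tlr2 for diacylated lipoproteins, fell by 0.93 on the log2 scale to a fold of 0.526 (adjusted p = 0.00038, Wald statistic -4.39 in the authors' deposited table). Of all tested genes, 0.631% had a higher Wald statistic than Tlr7 and 1.20% than Tlr9, and 1.75% had a lower one than Tlr6. The relative Tlr1 had a log2FC of 0.03 and adjusted p = 0.95 in the authors' deposited table.

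The remaining members did not pass the test in granulocytes. Tlr3 had a log2FC of 0.79 (adjusted p = 0.085) and Tlr8 of 0.40 (adjusted p = 0.16) in the authors' deposited table. Tlr4 had a negative value, -0.53 with an adjusted p of 0.13, and so had Tlr5 with -0.25 (adjusted p = 0.61), in the authors' deposited table. Tlr2 with 0.21 (adjusted p = 0.55) and Tlr13 with 0.19 (adjusted p = 0.54), which rose in TAM, had small positive values in the authors' deposited table. The median Wald statistic of the members was 1.00, against -0.14 over all tested genes. By role, the 4 receptors of single-stranded RNA and DNA had a median log2FC of 0.84, and of these Tlr7 and Tlr9 passed. The lipopolysaccharide and flagellin receptors, only Tlr4 and Tlr5, had one of -0.39, and neither passed. The 3 lipoprotein receptor chains had a median of 0.03, and Tlr3 is a role of its own. In TAM the nucleic acid list had a lower median (0.65) than Tlr4 and Tlr5 (0.98), and in IM the medians were 0.37 and 0.006. Differences between roles were not tested.

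Tlr7 and Tlr9 are also used by B cells and plasmacytoid dendritic cells. In granulocytes of irradiated tumours, 3 of 10 plasmacytoid dendritic cell markers rose and none fell, with a list median Wald statistic of 0.27. The log2FC values in the authors' deposited table were 3.28 for Pacsin1 (mean count 21.8) and 1.31 for Bst2, which is an interferon-induced gene as well. Others of the list had negative values without passing, such as -1.005 for Cox6a2 (adjusted p = 0.27) and -0.56 for Runx2 (adjusted p = 0.15) in the authors' deposited table. Siglech, a defining marker of those cells, had a mean count of only 4.98 over all libraries and adjusted p = 0.98 in the authors' deposited table. B cell markers rose in 2 of 8 cases, Pax5 (mean count 5.93) with 2.56 and Fcrla with 0.99 in the authors' deposited table. Macrophage markers rose in 5 of 10 cases, classical monocyte markers in 3 of 9, granule genes in 2 of 9, and neutrophil and eosinophil markers in 1 case each, while T and NK cell and fibroblast markers fell in 3 cases each. The part of these cells in the changes of Tlr7, Tlr9 and Tlr6 was not tested.

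The promoter of Tlr9 is shown as that of the member with the largest fold. It lies at chr9:106222348-106222647 on the plus strand (RefSeq, GRCm38.p6) and holds 1 PU.1 core, in capitals, on the minus strand from position 261, just past the start.
Tlr9: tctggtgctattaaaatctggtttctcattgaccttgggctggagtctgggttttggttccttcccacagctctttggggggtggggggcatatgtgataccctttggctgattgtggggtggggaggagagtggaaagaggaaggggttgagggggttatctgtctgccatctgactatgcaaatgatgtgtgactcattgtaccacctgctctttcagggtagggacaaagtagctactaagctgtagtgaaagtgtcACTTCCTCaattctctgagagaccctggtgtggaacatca
An alternative start of Tlr1 also holds a PU.1 core.

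Whether the sorts differed was tested in a pair of ways. A strict test of opposite directions, which requires Wald statistics of opposite sign and keeps the larger p of the pair, called no member in any pair of sorts after Benjamini-Hochberg adjustment. Of all genes tested in both sorts, it called 15 of 15679 between TAM and granulocytes. It called 0 of 14506 between TAM and IM and 0 of 14506 between IM and granulocytes. With so few calls in all, a count of 0 says little about the members. At an unadjusted p under 0.05 the strict test gave Tlr4 (p = 0.035) and Tlr6 (p = 0.041), both with a positive value in TAM and a negative one in granulocytes. The difference of the deposited folds was also tested, with each standard error approximated by fold over Wald statistic, over genes whose mean count reaches 50, which leaves out Tlr9. This test was chosen after the values were seen, and holds only if both folds of a gene were shrunk alike, which was not checked for any member. It treats the sorts as independent, although they come from the same tumours.

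By the approximate test, the effect of irradiation on Tlr5 was larger in TAM than in granulocytes by 1.65 ± 0.38 (approximate SE; adjusted p = 0.00047) and than in IM by 1.44 ± 0.33 (adjusted p = 0.00079) on the log2 scale. Tlr6 differed by 1.33 ± 0.29 between TAM and granulocytes (adjusted p = 0.00015) and by 1.02 ± 0.29 between IM and granulocytes (adjusted p = 0.029). For Tlr4 the difference of TAM minus granulocytes was 1.09 ± 0.34 (adjusted p = 0.016), and for Tlr2 it was 0.79 ± 0.28 (adjusted p = 0.037). Among all genes compared, 17.0% differed between TAM and granulocytes, 10.0% between TAM and IM and 1.64% between IM and granulocytes. Differences that did not pass were -0.83 ± 0.35 for Tlr7 (adjusted p = 0.080) and 0.60 ± 0.26 for Tlr13 (adjusted p = 0.086) between TAM and granulocytes. For Tlr3, the difference of TAM minus IM did not pass at -0.61 ± 0.46 (adjusted p = 0.43), nor did that for Tlr8 at 0.13 ± 0.27 (adjusted p = 0.80).

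Genes with a pattern most like 2 of the members were sought among 10154 other genes by the distance between their 3 Wald statistics. Nearest to Tlr5 were Pi16 (distance 0.389), Ddit4, Nfe2, Sgms2 and Tiam2 (0.651). Nearest to Tlr6 were Dnajb9 (0.335), Rnf40, Tpt1, Flcn and Rab8b (0.566). With only 3 comparisons per gene, this is a description.

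The other genes of Toll-like receptor signalling were counted in 8 lists of 78 genes by role. In TAM, 35 of 77 tested rose and 3 fell, in IM 8 of 76 rose and 1 fell, and in granulocytes 18 of 76 rose and 8 fell, to be read beside the shares of all genes given above. Their median Wald statistic was 2.22 in TAM, 0.57 in IM and 1.23 in granulocytes. The genes that rose in all 3 sorts were Irf7, Ikbke, Dnase2a, Ctss and Ccl5.

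Among the accessory proteins of the receptors at the cell surface, Cd14, the lipopolysaccharide co-receptor gene, rose in TAM (log2FC 0.89, adjusted p = 3.0e-04) and fell in granulocytes (-0.85, adjusted p = 0.0030) in the authors' deposited table. Ly96, which encodes the MD-2 subunit that holds lipopolysaccharide on Tlr4, rose in TAM with 0.57 and in granulocytes with 0.54 in the authors' deposited table. In all, 3 of 6 accessory genes rose in TAM, none changed in IM, and 1 rose and 1 fell in granulocytes. Cd14 had -0.18 (adjusted p = 0.72) in IM in the authors' deposited table.

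Of 7 folding and transport genes, 1 rose and 1 fell in TAM, none changed in IM and 2 rose in granulocytes. Hsp90b1, the gp96 chaperone gene that many Toll-like receptors need, fell in TAM (log2FC -0.77, adjusted p = 9.4e-05 in the authors' deposited table). Slc15a3, a peptide and histidine transporter gene of endolysosomes, rose there with 0.49 in the authors' deposited table. Unc93b1, which carries the nucleic acid receptors to endosomes, rose in granulocytes with 0.48 (adjusted p = 0.016) and had 0.43 in IM (adjusted p = 0.055) in the authors' deposited table. Slc15a4, a related transporter gene needed by Tlr7 and Tlr9, rose in granulocytes with 0.44 (adjusted p = 0.038) in the authors' deposited table.

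Genes that process endosomal receptors or nucleic acids rose in 5 of 9 tested cases in TAM, 5 in IM and 4 in granulocytes, and none fell. Dnase2a, the lysosomal DNase gene, had log2FC values of 0.47 in TAM, 0.80 in IM and 1.13 in granulocytes, the last at adjusted p = 1.6e-16 in the authors' deposited table. The cathepsin gene Ctsl rose by 0.91 in TAM and 0.80 in IM, and Ctss by 0.98 in granulocytes, on the log2 scale in the authors' deposited table. These proteases also serve other lysosomal functions.

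Of 6 TIR adaptor genes, 1 changed in each sort. Tirap, which bridges Tlr2 and Tlr4 to MyD88, rose in TAM (log2FC 0.68, adjusted p = 6.8e-04), and Ticam2, which bridges Tlr4 to TRIF, fell in IM (-0.83, adjusted p = 0.0029), in the authors' deposited table. Pik3ap1, an adaptor to phosphoinositide 3-kinase, fell in granulocytes with -0.77 (adjusted p = 0.0044) in the authors' deposited table. Myd88 itself passed in none of the 3 sorts.

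Kinases and ubiquitin ligases rose in 7 of 16 cases in TAM and 1 fell, with a single rise in IM, and 1 rise and 2 falls in granulocytes. Ikbke, a kinase gene upstream of interferon regulatory factors, had log2FC values of 0.64 in TAM, 0.77 in IM and 2.19 in granulocytes (adjusted p = 2.6e-17) in the authors' deposited table. Ikbkb, the catalytic kinase gene of the NF-kB pathway, rose in TAM with 0.57 (adjusted p = 1.4e-08) in the authors' deposited table. Traf6, the ubiquitin ligase gene downstream of MyD88, fell in granulocytes with -0.95 (adjusted p = 6.5e-04) in the authors' deposited table.

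Of 7 transcription factor genes, 4 rose in TAM, 1 in IM and 2 in granulocytes, where 1 fell. Irf7, which drives interferon alpha transcription downstream of Tlr7 and Tlr9 and is itself interferon-induced, had log2FC values of 1.82 in TAM, 1.40 in IM and 1.34 in granulocytes in the authors' deposited table. Rela rose in TAM with 0.46 and Nfkb1 fell in granulocytes with -0.94 in the authors' deposited table. Both encode NF-kB subunits.

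Negative regulators rose in 5 of 11 cases in TAM and 1 fell, none changed in IM, and 2 rose and 1 fell in granulocytes. Nfkbia, the NF-kB inhibitor gene, had 1.27 and Tnfaip3, which encodes the ubiquitin-editing protein A20, had 1.81 as log2FC values in TAM in the authors' deposited table. In granulocytes Tnip1 (1.20) and Irak3 (1.31), which encode inhibitors of the pathway, rose in the authors' deposited table. Both rose in TAM as well, with 1.05 (adjusted p = 0.013) and 1.40 (adjusted p = 0.0024) in the authors' deposited table. Nfkbia had 0.14 (adjusted p = 0.80) in IM in the authors' deposited table.

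Cytokines, chemokines and enzymes that the receptors induce rose in 9 of 15 cases in TAM with none that fell, in 1 of 14 in IM, and in 6 of 14 in granulocytes, where 2 fell. Il1b had a log2FC of 1.50 in TAM (adjusted p = 1.1e-09), and Acod1, which makes itaconate, had 1.34, in the authors' deposited table. The 2 that fell in granulocytes were Il1b with -0.715 (adjusted p = 0.020) and Ptgs2 with -0.885 (adjusted p = 0.0056) in the authors' deposited table. Both of them rose in TAM. Ccl5 rose in IM with 1.70 (adjusted p = 0.013) in the authors' deposited table. In granulocytes the anti-inflammatory cytokine gene Il10 rose with 2.84 and the interferon-induced chemokine gene Cxcl10 with 1.32 in the authors' deposited table. These genes answer to many other stimuli as well.

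**Figure D5:**
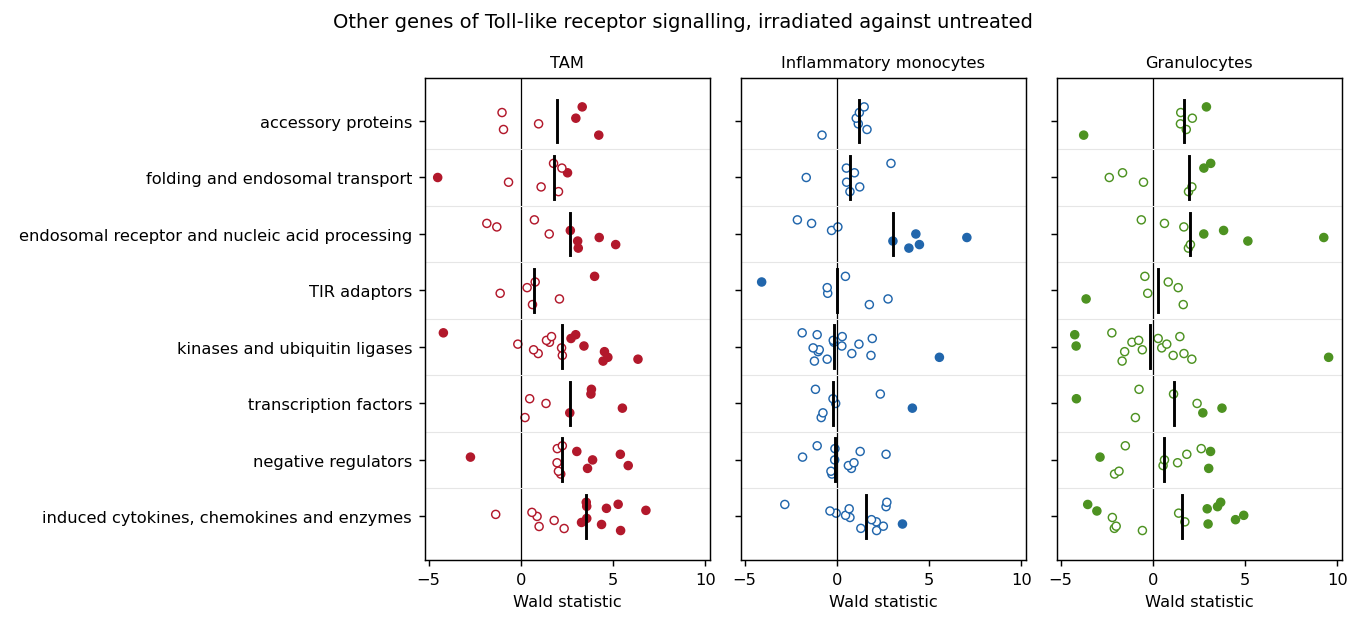
Wald statistics of irradiated against untreated cells for the tested genes of 8 role lists around the Toll-like receptors, in the 3 sorts, from the authors' deposited tables. Each point is 1 gene, filled where its adjusted p is under 0.05, and black bars are list medians. The induced genes have a median of 3.54 in TAM, and processing genes one of 3.03 in IM.

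The mouse genes Tlr11 and Tlr12, which are outside the 10 members and were added after their values were seen, gave 2 further calls. Tlr12, a receptor for profilin of protozoa, fell in TAM (log2FC -1.81, adjusted p = 0.00041) and in granulocytes (-2.02, adjusted p = 0.00085) and had -0.20 in IM (adjusted p = 0.91) in the authors' deposited table. Tlr11 passed in none of the 3 sorts, with adjusted p-values of 0.46 in TAM, 0.86 in IM and 0.50 in granulocytes in the authors' deposited table.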

How the data were processed

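RNA of sorted myeloid cells was measured by RNA-seq in 41 libraries from 15 tumours. Per the submitters' processing notes, the tools were STAR 2.7.6a, fastp 0.20.1, R 4.0.2 and DESeq2 1.28.1, with the builds mm39 and GRCm39. For counting, strand and annotation, nothing is given in the sources used here, and the Nextera XT kit named in the labels' protocols keeps no strand. Per the file headers, the deposited BaseMean is a signal, the mean of normalised counts over libraries, and it is identical in the 3 tables. The authors' log2 fold changes were taken to be shrunken values, since 16 called genes in TAM and 3 in IM have a fold of the sign opposite to the Wald statistic. The authors' Wald statistic is a score, and the deposited p-values match its two-sided normal p within 0.0021 on the log10 scale. Shrinkage makes folds of noisy genes too small. Adjusted p-values are those of the authors' DESeq2 Wald test over all genes that they tested, which have a mean count of at least 2.50 (TAM), 6.33 (IM) or 3.96 (granulocytes).

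From these tables, calls at an adjusted p under 0.05 were counted, lists were summarised by counts and medians, and differences between sorts were tested across all genes. The members and lists were chosen with earlier results of these data known. All 10 members are named. Per list and comparison, up to 2 called genes with the smallest adjusted p are named, or the most abundant one where none passed. Some marker genes, genes called in all 3 sorts and Ptgs2 were named after their values were seen. So were values in further sorts of genes named in another, such as Tnip1, Irak3 and Il1b. The planned test of the size of differences needed standard errors that the tables do not hold, so an approximate one was added. Exon lengths and shared 50-base words came from GENCODE M21 (GRCm38), matched by symbol, and promoters from RefSeq (GRCm38.p6). Scripts were tested on simulated data. Python 3.11.15, pandas 2.3.3, numpy 2.4.6, scipy 1.17.1 and matplotlib 3.10.9 were used. Within a comparison, each library came from a separate tumour. Whether the authors fitted the 3 sorts together, and whether tumour entered the fit, was not established here. The spread behind the p-values may therefore be drawn from all 3 sorts and not from the compared sort alone.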

Additional observations from a re-analysis of the deposited data

Results flagged for a closer look

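The effects of irradiation on 4 members differed between sorts by the approximate test of the difference of folds, which was chosen after the values were seen. Its adjusted p was 0.00079 for Tlr5 in TAM against IM and 0.00047 for Tlr5 in TAM against granulocytes. For Tlr6 it was 0.00015 in TAM against granulocytes and 0.029 in IM against granulocytes. For Tlr4 and Tlr2 in TAM against granulocytes it was 0.016 and 0.037. Among all genes compared by this test, 17.0% differed between TAM and granulocytes, 10.0% between TAM and IM and 1.64% between IM and granulocytes. Tlr4, which had no call in any single sort, is listed by the approximate test alone. The strict test of opposite directions called none of these. It cannot call a difference in size where both Wald statistics have the same sign, as for Tlr2. It also called few genes in all, 15 of 15679 between TAM and granulocytes and 0 in the other pairs, so it cannot decide on these differences. The sorts share tumours, which the approximate test does not take into account.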

How the results depend on the processing

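No paired analysis was possible because irradiated and untreated tumours carry different numbers and no value of a single library was analysed here; for the same reason no replicate was left out. In TAM, 4 members were called, with 1 left when the log2FC also had to reach 1 in size (Tlr5) and 0 when Wald statistics were divided by their robust SD of 2.72. In IM the 1 call became 0 at an adjusted p under 0.01, 0 with adjustment over every gene, 0 with the robust SD of 1.56, and 2 at an adjusted p under 0.1 (Tlr3 and Tlr8). In granulocytes the 3 calls became 0 with the robust SD of 2.09. Dividing by the robust SD assumes that most genes did not change, and whether that holds was not tested. Opposite directions gave 0 members in each of 3 settings. At the main setting they gave 15 of all 15679 genes between TAM and granulocytes and 0 genes in the other pairs. The approximate difference of folds, added later, gave 6 pairs of member and sorts. The called pathway genes in granulocytes numbered 15 at an adjusted p under 0.01, against 26 at 0.05. No member changed direction with folds re-centred on the median gene, an alternative added after seeing the data, which left 4, 1 and 3 calls. Depth per library is unknown, so the limit it sets on Tlr9 cannot be given.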
